A study of Danio rerio with 6 samples.

Results

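Collagens and the other proteins of the extracellular matrix were followed here at the RNA level in whole zebrafish embryos sampled 72 hours after fertilization. The genes were taken by symbol from the array annotation. The rule covered collagen alpha chain genes on probe sets with 1 platform symbol. It also covered genes whose symbol begins with the root of a matrilin, a hyaluronan link protein, a laminin chain, a fibronectin, fibulin or fibrillin. The further roots were those of sparc, biglycan, decorin, lumican, tenascin C, nidogen, thrombospondin, periostin, aggrecan and versican. No fibrillin, lumican or type IV collagen gene was found. The rule found 46 genes among 8793 genes with 1 platform symbol, measured by 61 probe sets, and the probe set with the highest mean signal stood for each gene. Of the 46 genes, 42 passed a filter that removed the dimmest 25% of probe sets by mean signal. The other 4 (acanb, col10a1b, hapln2 and nid1a) had mean signals between 9.87 and 55.1 and are given below as signals with no test.

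The embryos came from eggs pooled over several aquaria and formed 3 groups of 2 arrays. The ERbeta2 MO embryos had been injected, no later than the 4 cell stage, with a morpholino against translation of the estrogen receptor ERbeta2 at 15 uM. The coMO embryos received the standard control morpholino at the same concentration, and the uninjected embryos (called blank by the submitters) received none. All 3 groups were raised to 72 hours post fertilization before total RNA was extracted. A morpholino is an antisense oligomer whose effect is transient and reaches whatever cells inherit it. The labels and files name no strain, and the knockdown cannot be checked on these arrays, because a translation blocker need not change its target's mRNA. The series title names neuromast development as the study's subject.

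Collagens are trimers of chains wound into a triple helix. Types I and V form the fibrils of skin, bone and tendon. Types II, IX and XI together form the fine fibrils of cartilage, and type X is deposited by hypertrophic cartilage cells in mammals and also by early bone-forming cells in zebrafish. Matrilins tie these fibrils to proteoglycans, and link protein holds proteoglycans on hyaluronan. Laminins and nidogen build the basement membrane under epithelia. At the stage sampled, the zebrafish pharyngeal skeleton is largely cartilage, and the notochord also makes type II collagen.

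Each array had been scaled by the authors to the same 2%-trimmed mean signal (500.1), and the medians of the arrays spanned 196.7 to 220.4. The ratio of the GAPDH control probe sets at the 3' and 5' ends, which rises as RNA breaks down or labelling reaches less far, was 2.01 to 2.76 in ERbeta2 MO, 1.23 to 1.95 in coMO and 1.24 to 1.32 in uninjected embryos. The same ratio for acta1 was 8.92 to 13.5 in ERbeta2 MO, 10.8 to 21.8 in coMO and 3.54 to 4.26 in uninjected embryos. Changes fitted with the GAPDH ratio as a covariate are given after the comparisons. Values below are MAS5 signals, a linear intensity per probe set, and changes are differences of log2(signal + 32), which understate the changes of dim genes. In whole embryos, fewer cells of a type and less RNA per cell cannot be told apart.

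The first comparison sets embryos with the targeted morpholino against those with the control one. In ERbeta2 MO embryos the cartilage matrilin gene matn1 fell 6.9-fold relative to coMO embryos. The probe set annotated as the type X collagen gene col10a1a, whose identity is less certain and whose product both cartilage and early bone-forming cells make, fell 4.06-fold. Smaller falls, each close to 2-fold, were found for col11a2, col1a2, dcn and sparc, and 1 gene, the fibronectin gene fn1b, rose 2.93-fold. Of the 42 tested matrix genes, 7 passed an adjusted p of 0.05 in limma (16.7%), against 2.29% of all 11626 probe sets tested. The sets are unlike, since each matrix gene is its brightest probe set (median mean signal 714.9) and the background holds every tested probe set. Shares matched for signal were not computed. The called genes were 6 lower, where the share over all probe sets was 1.63%, and 1 higher, where it was 0.654%. The median change of the 42 genes was -0.28 on the log2 scale, against -0.01 for all probe sets, with 31 negative and 11 positive values. At an unadjusted p under 0.05 there were 15 of the 42 genes, against 20.4% of all probe sets.

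Against uninjected embryos the same morpholino gave 7 called matrix genes as well, 5 lower and 2 higher. The lower genes were col10a1a, matn1, hapln1a, sparc and col1a1a, and the higher genes were fn1b and col14a1a. This share of 16.7% stood beside a background of 18.5% (10.2% lower and 8.31% higher), so the matrix genes were called about as often as any probe set in that comparison. At an unadjusted p under 0.05 there were 18 matrix genes, against 35.9% of all probe sets. Their median change was -0.15, against 0.03 for all probe sets. With each array centred on its median it was -0.03, against 0.15 for all probe sets. Both comparisons share the ERbeta2 MO arrays, and 4 genes were called in both: matn1, col10a1a, sparc and fn1b. Of the 42 genes, 10 were called in at least 1 comparison and 32 in none. The matching shares over all probe sets are not given here, so these overlap counts describe the 42 genes only.

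**Figure D1:**
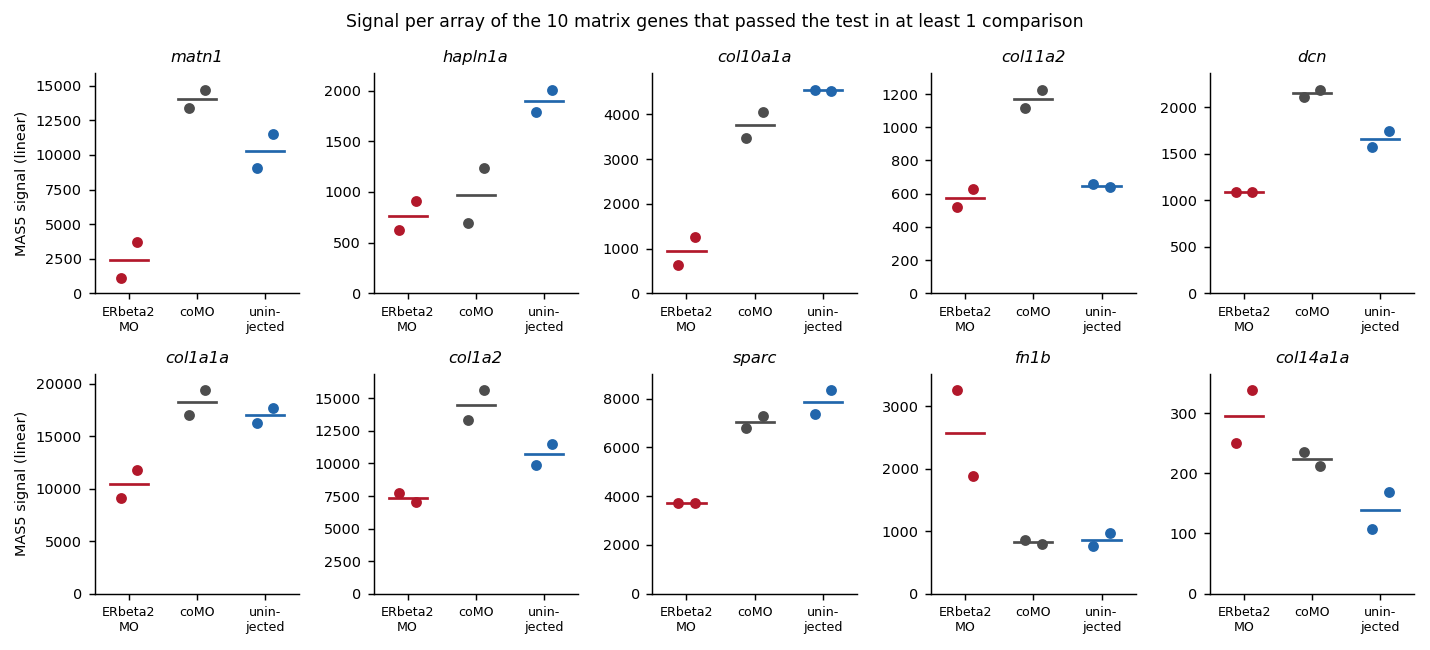
MAS5 signal (linear, from 0) on each array for the 10 matrix genes that passed the test in at least 1 comparison, with 1 point per array and a bar at the mean of the 2 arrays of ERbeta2 MO, coMO and uninjected embryos. The points of matn1, col10a1a, sparc, fn1b, dcn, col1a1a and col1a2 in ERbeta2 MO embryos stand apart from both other groups. Those of col11a2 in ERbeta2 MO embryos lie beside the uninjected points.

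Matrilin 1, the product of matn1, is an abundant adaptor protein of cartilage matrix. The matn1 signal was 1082.5 and 3698 on the ERbeta2 MO arrays, 13361 and 14727 on the coMO arrays, and 9029 and 11497 on the uninjected arrays. Both ERbeta2 MO arrays lay below all 4 others, and they also differed more than 3-fold from each other. The mean was 2390.4 ± 1850 in ERbeta2 MO, 14044 ± 966 in coMO and 10263 ± 1745 in uninjected embryos (SD, n = 2 each). The change was -2.79 against coMO (SE 0.469, 95% interval -3.86 to -1.71, adjusted p = 0.0347) and -2.33 against uninjected embryos (SE 0.469, interval -3.40 to -1.25, adjusted p = 0.0149). Without ERbeta2 MO replicate 1, the lower array, the changes were -1.91 and -1.45, and without replicate 2 they were -3.66 and -3.20. The coMO signals exceeded the uninjected ones, by 0.46 on the log2 scale, but that difference did not pass (adjusted p = 0.702).

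Type X collagen, encoded by col10a1a, is the collagen of hypertrophic cartilage in mammals and is also made by early bone-forming cells in zebrafish. The ERbeta2 MO arrays had col10a1a signals of 645 and 1252, against 3469 and 4052.5 with coMO and 4554 and 4513 uninjected. The groups did not overlap, and the coMO arrays lay just below the uninjected arrays. Against coMO the gene fell by 2.02 (SE 0.291, 95% interval -2.69 to -1.35, adjusted p = 0.0216), and against uninjected embryos by 2.29 (interval -2.96 to -1.63, adjusted p = 0.0042). Between coMO and uninjected embryos its difference was -0.27 (adjusted p = 0.717). The name of this gene is less certain than most, since the name of its probe set points to a sequence cluster that also holds cdc42. The second type X gene, col10a1b, was at 22.9 and 33.2 with ERbeta2 MO, 36.0 and 40.1 with coMO and 61.5 and 56.1 uninjected, below the filter.

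Of the 6 tested genes for collagens of the cartilage fibril itself, 1 passed against coMO, col11a2, and none against uninjected embryos. Over all probe sets the shares called were 2.29% and 18.5%. The gene col2a1a, which encodes the main chain of cartilage collagen, was the brightest member, with signals of 15760 and 21339 with ERbeta2 MO, 23571 and 22819 with coMO and 15135 and 20675 uninjected. The ERbeta2 MO and uninjected arrays overlapped. Its change was -0.34 against coMO (95% interval -0.85 to 0.17, adjusted p = 0.43) and 0.05 against uninjected embryos (-0.46 to 0.56, adjusted p = 0.894). Neither interval overlapped that of matn1 in the same comparison, and the difference between the genes was not itself tested.

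Type IX collagen decorates the cartilage fibril and is built from 3 different chains. Its gene col9a2 had signals of 4678 and 4686 with ERbeta2 MO, against 7083 and 7106 with coMO and 4918 and 6610.0 uninjected, a change of -0.60 against coMO that did not pass (adjusted p = 0.154). The col9a3 signals spanned 5354 to 6586 over all arrays, with changes of -0.13 against coMO and 0.03 against uninjected embryos. The third gene, col9a1b, had the opposite sign, with a change of 0.48 against coMO (adjusted p = 0.199). Its signals were 5475 and 5127.5 with ERbeta2 MO, 3486 and 4117 with coMO and 4356.5 and 4811 uninjected, so both ERbeta2 MO arrays were the highest of the 6. None of the 3 genes passed in any comparison.

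Type XI collagen sets the thickness of the cartilage fibril. Its gene col11a2 had signals of 520.0 and 631 with ERbeta2 MO, 1119 and 1227 with coMO and 656 and 639 uninjected. The coMO arrays stood high, and the ERbeta2 MO arrays lay at or just under the uninjected ones. Its change against coMO was -0.99 (SE 0.196, adjusted p = 0.0466), and against uninjected embryos the change was -0.17 (95% interval -0.62 to 0.28, adjusted p = 0.571). The coMO signal exceeded the uninjected one by 0.82 (interval 0.38 to 1.27, adjusted p = 0.32). In the other type XI gene, col11a1a, the pattern was similar but smaller, at 7784 and 7458 with ERbeta2 MO, 10166 and 10865 with coMO and 7229 and 8595 uninjected, with a change of -0.46 against coMO (adjusted p = 0.202).

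**Figure D2:**
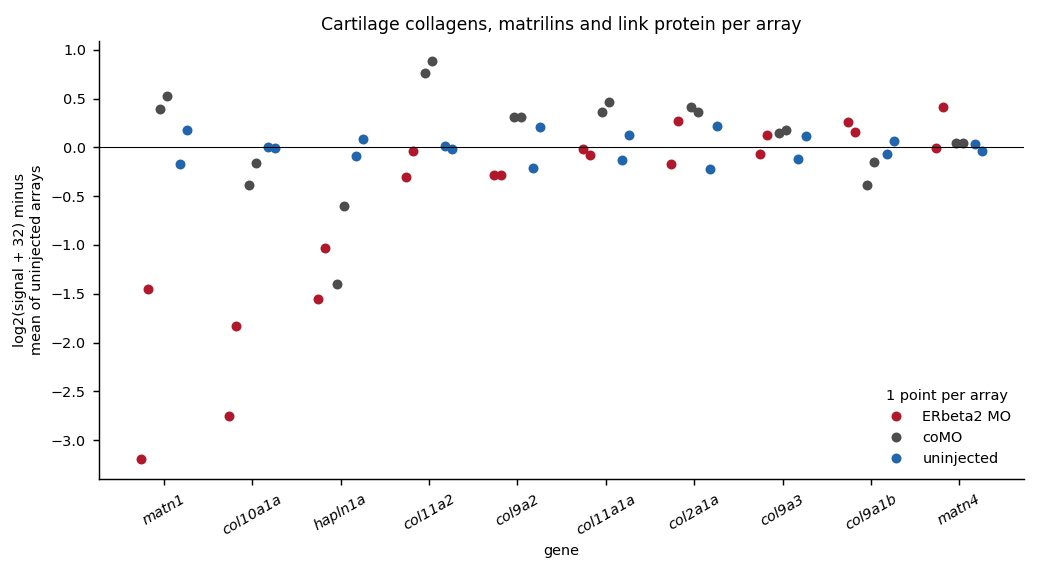
Difference of log2(signal + 32) from the mean of the uninjected arrays for 10 genes of the cartilage collagens, matrilins and link protein, 1 point per array, with ERbeta2 MO left, coMO in the middle and uninjected right for each gene. The ERbeta2 MO points of matn1 and col10a1a lie far below 0, while those of col2a1a, col9a3 and col11a1a lie close to it; the coMO points of col11a2 lie above 0.

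Link protein, hyaluronan-bound proteoglycans and small leucine-rich proteoglycans fill the space between fibrils. For hapln1a, which encodes the link protein, the probe set with the highest mean gave 624.5 and 908 with ERbeta2 MO, 696 and 1239 with coMO and 1787 and 2010.5 uninjected. Both injected groups lay below the uninjected arrays and overlapped each other. The change was -1.29 against uninjected embryos (SE 0.298, adjusted p = 0.0227), -0.29 against coMO (adjusted p = 0.622), and -1.0 for coMO against uninjected embryos (95% interval -1.69 to -0.32, adjusted p = 0.32). Of the 6 probe sets of this gene, 3 others were tested, and their changes against uninjected embryos ran only between -0.08 and 0.04 (smallest adjusted p = 0.854). By their names, 2 of these 3 belong to a sequence cluster that also covers other genes, atp2a1 and sox3 among them, so they may not measure hapln1a. The remaining 1, with no such overlap in name, changed by -0.06 (95% interval -1.11 to 0.98, adjusted p = 0.935). Its signals on the ERbeta2 MO arrays were 105.7 and 374.9, and the wide interval leaves its change unsettled.

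Decorin, encoded by dcn, is a small proteoglycan that binds collagen fibrils. Its signal was 1092 and 1089.7 with ERbeta2 MO, 2113 and 2189.8 with coMO and 1576 and 1741 uninjected. The groups did not overlap, with coMO the highest. The change was -0.96 against coMO (SE 0.18, adjusted p = 0.042) and -0.59 against uninjected embryos, which did not pass (95% interval -1.0 to -0.18, adjusted p = 0.0545). The matrilin gene matn4 had changes of 0.15 and 0.20 against coMO and uninjected embryos, with signals between 2106 and 2879, and did not pass. The biglycan gene bgnb (-0.03 and -0.02) and the versican gene vcanb, also named after its values were seen (-0.12 and 0.1), had signals of at most 115.4 and 266 and were not called. The aggrecan gene acanb, below the filter, was at 12.4 and 49.9 with ERbeta2 MO, 26.0 and 85.6 with coMO and 70.9 and 85.5 uninjected. Also below the filter, hapln2, a link protein gene of brain matrix in mammals, did not exceed a signal of 20.2 on any array.

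The fibrillar collagens of skin, bone and tendon were lower in ERbeta2 MO embryos in both comparisons as measured. In each, 1 of 3 genes passed, where 1.63% of all probe sets were called lower against coMO and 10.2% against uninjected embryos. The alpha 1 chain gene of type I collagen, col1a1a, had signals of 9108 and 11772 with ERbeta2 MO, 17029 and 19419.8 with coMO and 16279 and 17679.6 uninjected. The ERbeta2 MO arrays lay below all others, and the coMO and uninjected arrays overlapped. Its change was -0.81 against coMO (adjusted p = 0.0749) and -0.71 against uninjected embryos (SE 0.195, 95% interval -1.16 to -0.26, adjusted p = 0.0382). The alpha 2 chain gene col1a2 was at 7713 and 7055.5 with ERbeta2 MO, 13320.0 and 15655 with coMO and 9875 and 11532 uninjected. It fell by 0.97 against coMO (SE 0.186, adjusted p = 0.0443), and its change against uninjected embryos was -0.53 (adjusted p = 0.0777). Again the coMO arrays were the highest. The type V gene col5a2a, singled out after its values were seen, with 1053 and 2178 with ERbeta2 MO, 2872 and 3435 with coMO and 2826 and 3127 uninjected, changed by -1.04 and -0.96, neither passing (adjusted p = 0.13 and 0.0658). The second probe sets of col1a1a, col1a2 and col5a2a had changes of -0.82, -0.58 and -0.92 against coMO. Against uninjected embryos they were -0.52, -0.36 and -0.68, the same signs, and none passed. By its name the second col1a1a probe set belongs to a sequence cluster that also covers runx2a, so its identity is less certain.

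**Figure D3:**
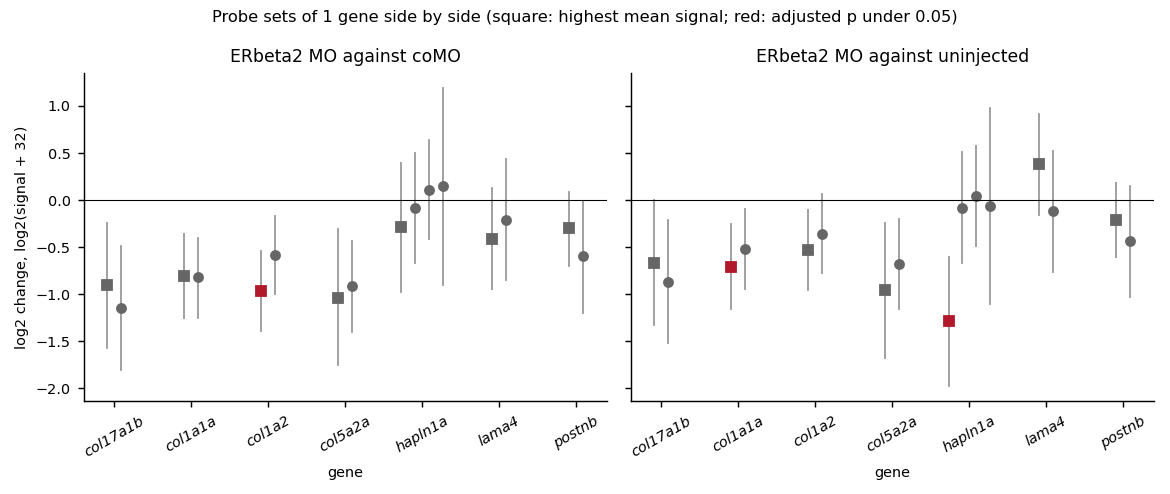
Changes of log2(signal + 32) with 95% intervals for all 16 tested probe sets of the 7 matrix genes that have more than 1, for ERbeta2 MO against coMO (left) and against uninjected embryos (right); squares mark the probe set used for the gene and red marks an adjusted p under 0.05. Probe sets of col1a1a, col1a2 and col5a2a lie on the same side of 0, whereas the square of hapln1a on the right lies at -1.29 and its other probe sets near 0.

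Among the matricellular genes, sparc encodes a collagen-binding glycoprotein secreted with collagen. Its signals were 3707 and 3715 with ERbeta2 MO, against 6809 and 7288 with coMO and 7384 and 8365 uninjected. The ERbeta2 MO arrays nearly coincided and lay below all others. The change was -0.92 against coMO (SE 0.175, adjusted p = 0.0434) and -1.08 against uninjected embryos (95% interval -1.48 to -0.67, adjusted p = 0.00808). The sparc probe set belongs by name to a sequence cluster that also covers other genes, the ribosomal protein gene rps6 among them, so the identity is less certain. Periostin, a matrix protein of skin and fin fold, was measured by postnb, whose probe set has the same limit. It had changes of -0.30 and -0.21 against coMO and uninjected embryos (adjusted p = 0.358 and 0.401). The tendon thrombospondin gene thbs4b was at 746 and 1147 with ERbeta2 MO, 1699 and 1725 with coMO and 1413.5 and 1423 uninjected. Neither its change of -0.86 against coMO nor that of -0.60 against uninjected embryos passed (adjusted p = 0.0943 and 0.101). The changes of thbs1b were 0.17 and 0.18, and those of the fibulin gene fbln1 were -0.26 and -0.56, none of which passed.

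Fibronectin forms the provisional matrix on which cells migrate and later collagen is laid. In ERbeta2 MO embryos fn1b had signals of 3260 and 1886.6, against 858 and 794 with coMO and 765 and 967.5 uninjected. Both ERbeta2 MO arrays stood above all others, while coMO and uninjected embryos overlapped. The change was 1.55 against coMO (SE 0.275, 95% interval 0.92 to 2.18, adjusted p = 0.0386) and 1.49 against uninjected embryos (adjusted p = 0.0114). Without ERbeta2 MO replicate 1 the changes were 1.16 and 1.1, and without replicate 2 they were 1.94 and 1.88. The paralogue fn1a was at 755 and 696 with ERbeta2 MO, 625 and 532 with coMO and 354 and 505 uninjected. Its change of 0.73 against uninjected embryos did not pass (adjusted p = 0.0553), nor did that of 0.32 against coMO.

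Among the 10 other collagens, which include network, membrane and fibril-associated types, none was called against coMO in limma and 1 against uninjected embryos. Of all probe sets, 2.29% and 18.5% were called in these comparisons. At an unadjusted p under 0.05 the counts were 2 and 6, against 20.4% and 35.9% of all probe sets. The called gene was col14a1a, which encodes a collagen on the surface of fibrils. It had 251 and 338.5 with ERbeta2 MO, 235 and 212 with coMO and 108 and 169 uninjected, and rose by 0.95 against uninjected embryos (SE 0.254, adjusted p = 0.0355). The coMO arrays lay between the other groups. Type VI collagen, a microfibril of muscle and connective tissue, was represented by col6a3, with 460.0 and 694 with ERbeta2 MO, 1156 and 1539.6 with coMO and 847 and 1177 uninjected. Neither its change of -1.19 against coMO nor that of -0.79 against uninjected embryos passed (adjusted p = 0.0648 and 0.0759). The col8a1a gene, expressed in zebrafish notochord, was dim, with 96.9 and 71.3 with ERbeta2 MO, 99.6 and 114.5 with coMO and 144 and 193 uninjected, and its change of -0.79 against uninjected embryos did not pass (adjusted p = 0.0549). Over the 10 genes the changes ran between -1.19 and 0.39 against coMO and between -0.79 and 0.95 against uninjected embryos.

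Of the basement membrane genes, only laminin genes were tested as a group, and no type IV collagen gene was among the members. None of the 7 tested laminin genes passed against coMO or uninjected embryos in limma, where 2.29% and 18.5% of all probe sets did. None had an unadjusted p under 0.05 in either comparison, against 20.4% and 35.9% of all probe sets. With 7 genes, the absence of calls does not by itself set this group apart. Their changes lay between -0.41 and 0.19 against coMO and between -0.54 and 0.58 against uninjected embryos. The alpha chain genes lama4 and lama5 were lowest in uninjected embryos. For lama4 the signals were 285 and 262 with ERbeta2 MO, 389 and 360.0 with coMO and 163 and 251 uninjected, whereas for lama5 they were 721 and 603 (ERbeta2 MO), 801 and 759 (coMO), and 324 and 579 (uninjected). A second probe set of lama4 changed by -0.12 against uninjected embryos, where the first changed by 0.38. The beta chain gene lamb1a had changes of 0.19 and 0.43 and the gamma chain gene lamc1 of -0.30 and -0.35. The nidogen gene nid1a, whose product links laminin to type IV collagen, was below the filter and reached at most 35.0 on any array.

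**Figure D4:**
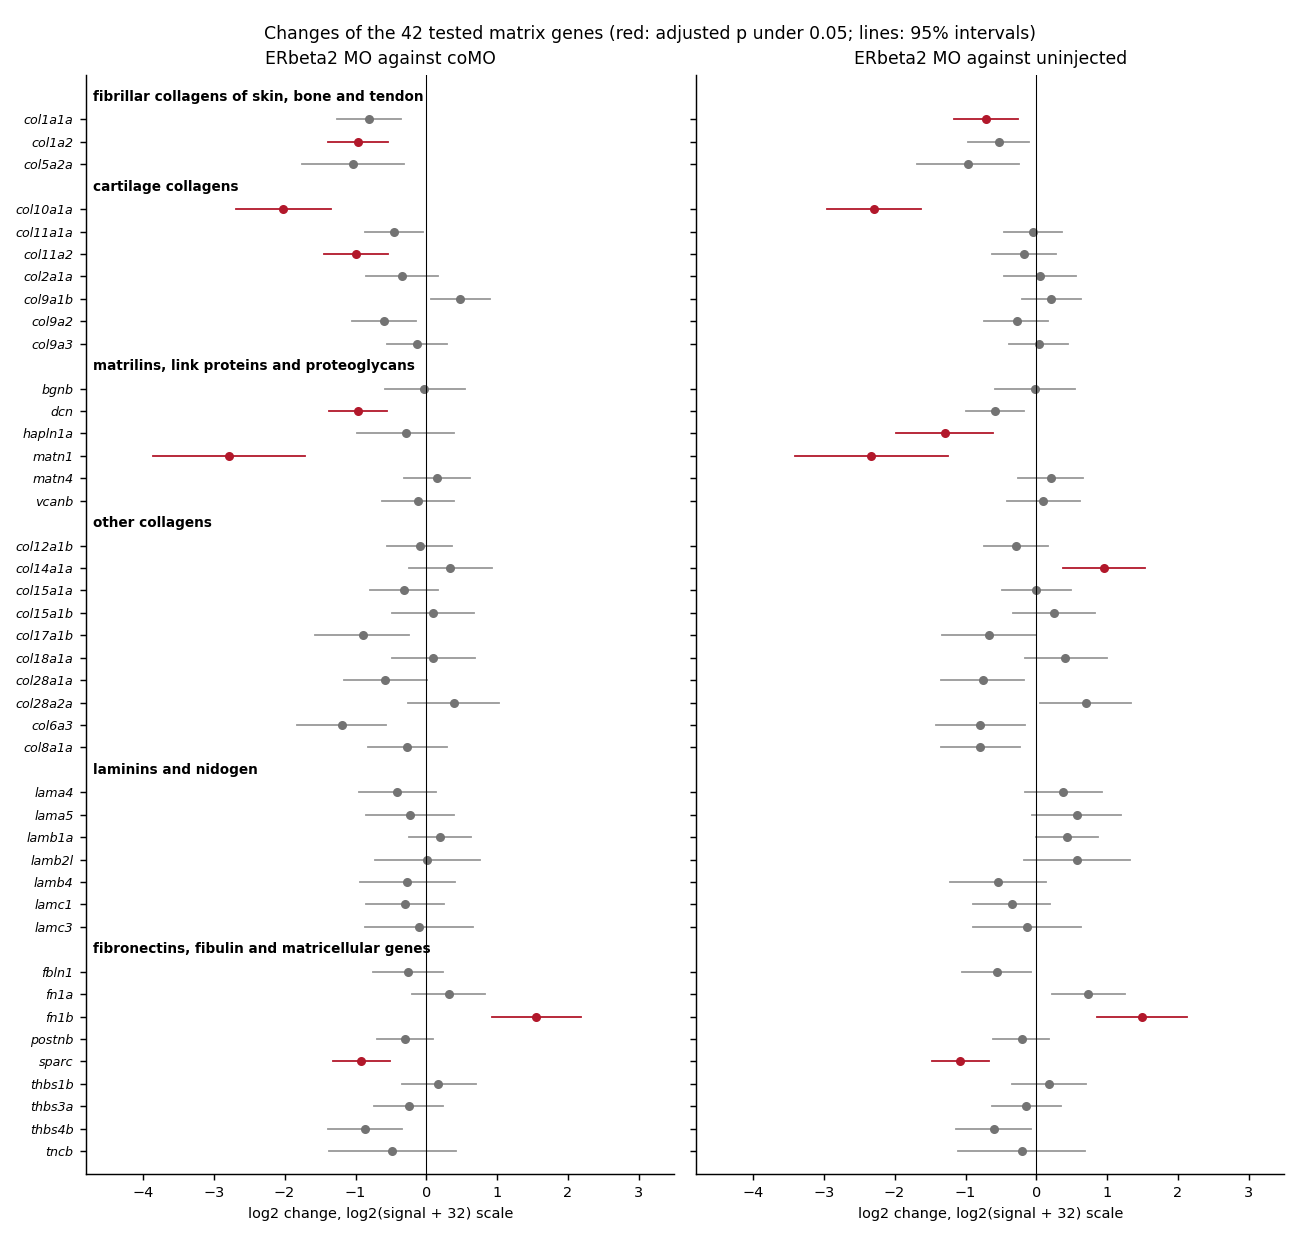
Changes of log2(signal + 32) with 95% intervals for the 42 tested matrix genes, grouped by role, for ERbeta2 MO against coMO (left) and against uninjected embryos (right); red marks an adjusted p under 0.05. The red points left of 0 are spread over the fibrillar and cartilage collagens, the matrilin and proteoglycan group and sparc, and no laminin gene is red.

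The third comparison asks what the control injection itself changed. No matrix gene passed between coMO and uninjected embryos, where limma called 0.0% of all probe sets. At an unadjusted p under 0.05 there were 7 of the 42 matrix genes, against 12.5% of all probe sets. The median change of the matrix genes was 0.19, with 30 positive and 12 negative values, against 0.02 for all probe sets. The changes with the smallest adjusted p (0.32) included those of col11a2 (0.82), lama4 (0.79) and hapln1a (-1.0). For col11a2, col1a2 and dcn the coMO signals exceeded the uninjected ones, and these genes had larger differences between ERbeta2 MO and coMO than between ERbeta2 MO and uninjected embryos. They were called against coMO only.

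The calls were sensitive to leaving out single control arrays. Over all probe sets, calls in both comparisons also fell in some fits with 1 array left out. The losses below therefore do not set the matrix genes apart. Against coMO, the changes of the 7 called genes were 0.687 to 1.31 times their size without 1 of the ERbeta2 MO arrays. With 1 array left in that group, the spread is estimated from coMO and uninjected embryos only. Such a fit cannot show whether the 7 calls depend on an ERbeta2 MO array. A fit without a coMO or an uninjected array likewise takes the spread from the remaining groups. All 7 were lost without coMO replicate 1 (adjusted p = 0.133 to 0.164) or coMO replicate 2 (0.404 to 0.415), although the changes stayed within 0.88 to 1.12 times their size. They were lost too without uninjected replicate 1 (0.0575 to 0.118) or uninjected replicate 2 (0.0576 to 0.119), which cannot alter the changes themselves. Against uninjected embryos, all 7 calls were lost without uninjected replicate 1 (0.0559 to 0.267), and col10a1a alone was kept without uninjected replicate 2. There, the calls of col1a1a and col14a1a were also lost without either coMO array, that of col1a1a without ERbeta2 MO replicate 1, and that of col14a1a without ERbeta2 MO replicate 2. Every called gene kept its sign when any 1 array was left out.

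**Figure D5:**
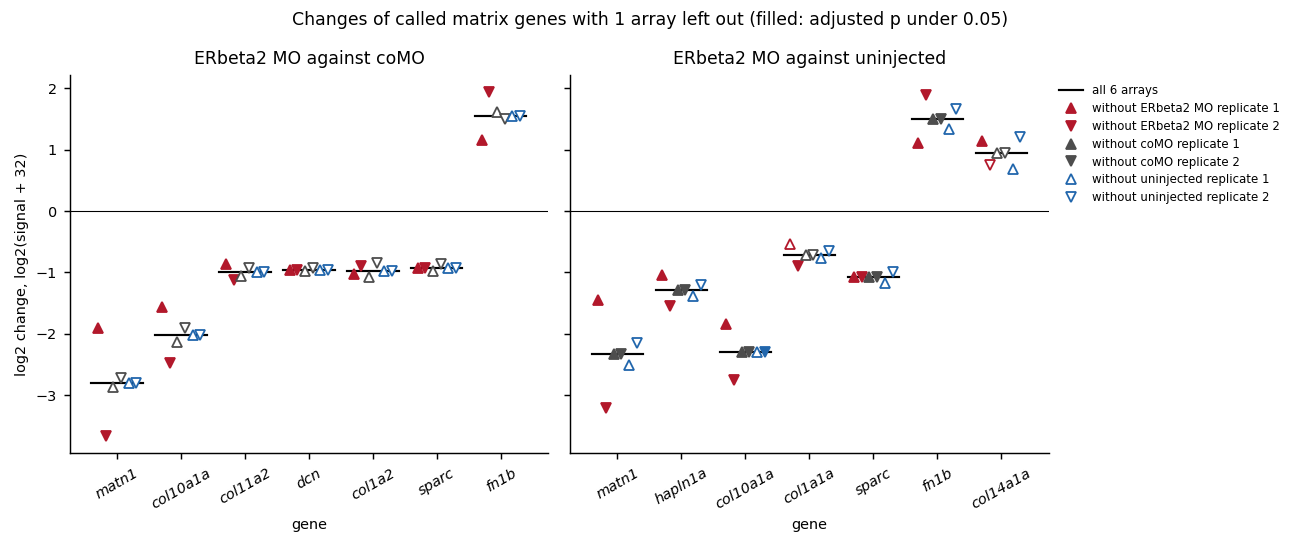
Change of log2(signal + 32) of each called matrix gene with 1 array left out, for ERbeta2 MO against coMO (left, 7 genes) and against uninjected embryos (right, 7 genes); black bars give the change with all 6 arrays and filled symbols an adjusted p under 0.05. Symbols for the ERbeta2 MO arrays spread widely for matn1, from -3.66 to -1.91 on the left, and all symbols for left-out coMO and uninjected arrays are open on the left.

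With the GAPDH 3'/5' ratio as a covariate no probe set passed in any comparison. Both ERbeta2 MO arrays had higher ratios than every coMO and uninjected array. The ratio thus overlaps with the group, and the loss of calls in this fit cannot separate them. The changes then were -1.94 for matn1, -1.5 for col10a1a, -0.84 for sparc, -0.92 for dcn, -0.86 for col1a2, -0.81 for col11a2 and 1.19 for fn1b against coMO. Against uninjected embryos they were -1.10 for matn1, -1.54 for col10a1a, -0.97 for sparc, 0.96 for fn1b, -0.30 for col1a1a, -0.25 for hapln1a and 1.13 for col14a1a. Replicate 1 of ERbeta2 MO, at a GAPDH ratio of 2.76, had lower signals than replicate 2 for matn1, col10a1a, col1a1a, hapln1a, col11a2 and col14a1a. It had higher signals for col1a2 and fn1b. For sparc and dcn the ERbeta2 MO arrays were at nearly the same level. Whether the GAPDH ratio bears on these differences was not tested.

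The authors' deposited table for ERbeta2 MO over coMO, in which every ratio is either 2.0 and above or 0.498 and below, contained 7 of the 46 matrix genes and 1046 probe sets, which are 6.7% of all. The ratios in the authors' deposited table were 0.137 for matn1, 0.213 for col10a1a, 0.427 for col6a3, 0.472 for col11a2, 0.473 for col1a2, 0.484 for sparc and 3.16 for fn1b. The authors' deposited table for ERbeta2 MO over uninjected embryos also listed 7 of the 46, where it lists 15.6% of all probe sets, so that this count is near the background. Among them, the authors' deposited table gave fn1a 2.19 and hapln1a 0.488. In the authors' deposited table for coMO over uninjected embryos, which lists 3.46% of all probe sets, the listed matrix genes were col11a2 at 2.2 and lama5 at 2.16. Of these, col6a3, fn1a and, for coMO over uninjected embryos, col11a2 and lama5 did not pass the test.

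Genes that make, secrete and crosslink collagen were followed as a separate list, of which 18 of 52 entries were tested. Against coMO none passed in limma, and 5 of the 18 had an unadjusted p under 0.05, against 20.4% of all probe sets. Against uninjected embryos 3 of the 18 passed, all lower, where 10.2% of all probe sets were called lower, so neither count stood far from the background. They were loxa, a lysyl oxidase gene for collagen crosslinking (46.2 and 82.2 with ERbeta2 MO, 143 and 208 with coMO, 211 and 239.5 uninjected; change -1.44, adjusted p = 0.0121), its relative loxl2b (-0.84, adjusted p = 0.0367) and ppib, a prolyl isomerase gene of collagen folding (-0.74, adjusted p = 0.0297). The list median was -0.25 against coMO and -0.30 against uninjected embryos.

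Of 13 tested genes for proteoglycan and hyaluronan synthesis, none passed against coMO. At an unadjusted p under 0.05 there were 3 of the 13, against 20.4% of all probe sets. Against uninjected embryos 1 was lower and 1 higher, against 10.2% and 8.31% of all probe sets. The lower gene was papss2b, which makes the sulphate donor for cartilage proteoglycans, with 409.6 and 321 with ERbeta2 MO, 642 and 837 with coMO and 1082 and 1189 uninjected (change -1.56, adjusted p = 0.00557). The higher was chsy3, a chondroitin synthase gene (1.03, adjusted p = 0.0178). List medians were -0.07 and -0.08.

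Of 8 tested matrix protease and inhibitor genes, mmp9, a gelatinase gene induced in injured tissue, was the only one called against coMO, and it was higher, against 0.654% of all probe sets. Its signals were 1276 and 381 with ERbeta2 MO, 89.2 and 82.1 with coMO and 116 and 146 uninjected. The ERbeta2 MO arrays differed more than 3-fold from each other and lay above all others, with changes of 2.64 (adjusted p = 0.0373) and 2.18 (adjusted p = 0.0172). Against uninjected embryos, mmp11b (1.21) and the inhibitor gene timp2b were also called higher and mmp14a, a membrane-bound collagenase gene, lower (-0.97, adjusted p = 0.0145), so that 3 of the 8 were higher and 1 lower, against 8.31% and 10.2% of all probe sets. The timp2b signals were 554 and 183 with ERbeta2 MO, 86.6 and 68.1 with coMO and 67.3 and 80.2 uninjected, so the ERbeta2 MO arrays lay above all others and differed about 3-fold from each other. Its change of 1.75 (adjusted p = 0.0251) was 1.02 without ERbeta2 MO replicate 1 and 2.47 without replicate 2. For mmp9 the change against coMO was 1.81 and 3.48 in the same fits, and against uninjected embryos 1.35 and 3.01. None of 7 tested receptor genes for matrix passed against coMO or uninjected embryos, where 2.29% and 18.5% of all probe sets did. At an unadjusted p under 0.05 there were 0 and 1, against 20.4% and 35.9% of all probe sets, and the list medians were -0.01 and 0.09.

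Regulators and markers of cartilage and bone outside the matrix families were only partly measured. Of 31 entries, 18 had a probe set with 1 symbol on the array, and 9 were tested. Those below the filter included sox9a, the master regulator gene of cartilage, and sp7, the bone-forming cell factor gene. Of the 9, 1 was called lower in each comparison and none higher, against 1.63% and 10.2% of all probe sets called lower. The cartilage gene cnmd, encoding chondromodulin, was called lower against uninjected embryos (-0.86, adjusted p = 0.0392) but not against coMO (-0.11). Positive changes were found for 2 of the 9 in each comparison, and neither gene passed. They were sox9b (0.51 against coMO and 0.62 against uninjected embryos) and nkx3.2 (0.60 and 0.59). A probe set annotated as runx2a, a bone factor gene, was called lower against coMO (-1.17, adjusted p = 0.0359), and its name points to the same sequence cluster as the second col1a1a probe set, so that its identity is uncertain. List medians were -0.42 and -0.67.

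Markers of other tissues that also make matrix were followed as lists too. The medians against coMO and uninjected embryos were -0.75 and -1.21 for fin fold and epidermis, and 0.36 and 0.36 for notochord. Of 16 fin fold and epidermis genes 4 were called lower against coMO, where 1.63% of all probe sets were, and 8 against uninjected embryos, where 10.2% were, and none higher. The fin fold actinodin genes and2 and and3 fell by 1.21 and 1.11 against coMO (adjusted p = 0.0367 and 0.0394) and by 1.33 and 1.21 against uninjected embryos. These were not the largest falls of the list, which were those of the called keratin gene krt15 (-2.16 and -2.95 in the same comparisons). The summed signal of the 16 genes was 27316 to 63655 in ERbeta2 MO, 65257 to 88429 in coMO and 94771 to 102457 in uninjected embryos. Of 8 notochord genes none passed against coMO, and 5 had an unadjusted p under 0.05, against 20.4% of all probe sets. Against uninjected embryos shha, a signalling gene of notochord and floor plate, and cmn, a notochord sheath gene, were higher (1.05 and 1.13, adjusted p = 0.0105 and 0.0112). The gene shhb was lower (-0.98). In that comparison 8.31% of all probe sets were called higher and 10.2% lower. The summed signal of the 8 notochord genes was 5500 to 6564 in ERbeta2 MO, 4707 to 4821 in coMO and 4520 to 4882 in uninjected embryos. The part of these tissues in the matrix values was not tested.

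Further from the skeleton the backgrounds were those shares for lower calls, and 0.654% against coMO and 8.31% against uninjected embryos for higher calls. At an unadjusted p under 0.05 the background against coMO was 20.4% of all probe sets. Of the muscle genes, 1 of 17 was called lower and 1 higher against uninjected embryos and none against coMO (1 at an unadjusted p under 0.05), with a summed signal of 271274 to 356210 in ERbeta2 MO, 306333 to 402509 in coMO and 375361 to 404253 in uninjected embryos. Of 9 neuron genes 1 was called higher against uninjected embryos and none against coMO (2 at an unadjusted p under 0.05). Of 9 photoreceptor genes 8 were called lower in each comparison of ERbeta2 MO. Of 8 liver genes 2 were called lower against coMO and 5 against uninjected embryos. Of 7 red blood cell genes 3 and 6 were called higher in the same comparisons. Summed signals were 30766 to 55238 for neurons, 3663 to 13787 for photoreceptors, 15727 to 22167 for liver and 38808 to 49071 for red blood cells in ERbeta2 MO embryos. They were 41896 to 47975, 55862 to 69735, 22917 to 39914 and 32806 to 33798 for those lists in coMO embryos, and 36220 to 37332, 71516 to 72300, 43435 to 43752 and 14537 to 20419 in uninjected embryos. Of the genes named from these lists, every call was lost with the GAPDH ratio as a covariate. As above, that fit cannot separate the ratio from the group. Over all probe sets, calls also fell in some fits with 1 array left out. Losses in those fits therefore do not set the named genes apart. Without uninjected replicate 1 every such call but those of krt15 was also lost. Without uninjected replicate 2 every one was lost but those of papss2b and krt15 against uninjected embryos. The calls against coMO (mmp9, runx2a, krt15, and2 and and3) were lost without either coMO array as well. So were those of cnmd, loxl2b, timp2b and shhb against uninjected embryos. Those of loxl2b and shhb were lost without ERbeta2 MO replicate 1, and that of cnmd without ERbeta2 MO replicate 2.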

How the data were processed

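Total RNA of whole embryos was biotin-labelled and measured on Affymetrix zebrafish arrays, per the labels' protocols. The authors deposited 1 MAS5 intensity per probe set and array, with MAS5 named in the submitters' processing notes and its version not given in the sources used here. Each array was scaled to a common trimmed mean, as seen from the values. Detection calls are absent from the deposited table, so whether a low signal exceeds background is unknown. Precision is limited by the number of arrays. The authors also deposited 3 tables of linear fold ratios, whose direction was taken from their match with the intensities (correlation of log2 ratios 0.949 to 0.965). Genes were named from the platform annotation by probe sets with 1 symbol (10802 of 15617), and none of the member symbols changed on update to assembly GRCz12tu. No sequence or coordinate is given.

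From the deposited signals, log2(signal + 32) was fitted by lmFit and trended eBayes (limma 3.58.1, R 4.3.3). A single model of the 3 groups took all 6 arrays and had 3 residual and 5.28 prior degrees of freedom. Left out were 115 control probe sets and then the 25% lowest in mean signal, which kept 11626. Tests were two-sided, adjusted by Benjamini-Hochberg over all tested probe sets, with a threshold of 0.05. Per the labels the replicates are biological, but all eggs were pooled, so a p-value reflects the spread among pools only. For 2 arrays against 2, the smallest p of an exact permutation test is 0.333. The fit was also run on simulated data, and the share of changes it recovered there is not reported here.

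Members and gene lists were chosen with earlier results of these data known. The named genes were every member called in a comparison, a fixed set of common matrix genes, and called genes of the lists. From the fin fold and epidermis list only krt15, and2 and and3 were named, although other genes were called. No gene was named from the muscle, neuron, photoreceptor, liver and red blood cell lists. The uncalled genes sox9b and nkx3.2 were named after their values were seen. Lists received no test. Alternatives were other pseudocounts, filters, scalings and priors, fits of the 4 arrays compared, a replicate block, the GAPDH ratio as a covariate, all probe sets of a member, and leaving out each array.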

Additional observations from a re-analysis of the deposited data

How the results depend on the processing

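No called gene changed sign under any of the 17 alternative fits in which it was tested; col14a1a fell below the stricter filter. Against coMO, where 7 matrix genes were called, the count was 4 with a pseudocount of 1, 3 with no filter, 3 with a constant prior, and 0 when only the 4 arrays compared were fitted or the GAPDH ratio was added. The count ran from 0 to 12 when 1 array was left out, and all 12 calls without ERbeta2 MO replicate 2 rest on a lone array assumed to vary like the other groups. Against uninjected embryos the 7 became 0 with the GAPDH ratio, and 0 to 15 with 1 array left out. The median change there was -0.03 after median centring of the arrays, which put the median of all probe sets at 0.15, against 0.03, and -0.02 with quantile normalization. It ran from -0.20 to -0.06 with 1 array left out. Same-numbered arrays did not deviate together (correlations of -0.098 to 0.109), so the block pairs only numbers. With the replicate block 3 were called against coMO, of which matn1 and col10a1a were among the 7 and col6a3 was not, and col11a2, col1a2, dcn, fn1b and sparc were lost. Against uninjected embryos it called 9, all 7 among them. Over all probe sets the 266 calls against coMO ran from 0 to 1602 and the 2156 against uninjected embryos from 0 to 3150, and coMO against uninjected embryos had at most 4. With no filter more probe sets are tested, and leaving out an array leaves fewer residual degrees of freedom. Calls over all probe sets thus moved too, and their share in each fit is not given here. The counts of matrix genes per fit are therefore no result particular to those genes. The cause of these moves was not tested. Without detection calls, the low signals of acanb, col10a1b, hapln2 and nid1a set no level.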

Other observations

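Values are given side by side for chains that assemble into the same collagen molecule. The type I chain genes col1a1a and col1a2 changed by -0.81 and -0.97 in ERbeta2 MO against coMO, and by -0.71 and -0.53 against uninjected embryos. The type XI chain genes col11a1a and col11a2 changed by -0.46 and -0.99 against coMO, and by -0.05 and -0.17 against uninjected embryos. Of the type IX chain genes col9a2 and col9a3 changed by -0.60 and -0.13 against coMO whereas col9a1b changed by 0.48. The 95% intervals of col9a1b (0.06 to 0.90) and col9a2 (-1.05 to -0.14) did not overlap there. Against uninjected embryos col9a1b changed by 0.21 (-0.21 to 0.63) and col9a2 by -0.28 (-0.74 to 0.17), intervals that overlap, and col9a3 by 0.03. The difference between the chains was not tested. The fibronectin paralogues fn1b and fn1a changed by 1.55 and 0.32 against coMO and by 1.49 and 0.73 against uninjected embryos. The matrilin genes matn1 and matn4 changed by -2.79 and 0.15 against coMO and by -2.33 and 0.20 against uninjected embryos.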
